A study of Homo sapiens with 30 samples.

Results

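The cytosolic ribosomal protein genes were examined in 4 lines made from RWPE1, an immortalized line of normal prostate epithelial cells, with peak lists from these and related cells. They were taken as the genes on autosomes or chromosome X whose symbol has the form of a large (RPL) or small (RPS) subunit protein and whose pooled expression reached an FPKM of at least 5 in each line. FPKM counts the fragments sequenced from a transcript, scaled by its length and by the mapped fragments of the sample. Of 26253 gene names in the expression table, 76 fit the name pattern and 74 met both limits, 28 of the small 40S subunit and 46 of the large 60S subunit. The RWPE1-vector line carries the empty pQCXIH and pBabe-puro retroviral vectors, RWPE-ERG carries ERG (isoform 1) in pQCXIH with empty pBabe-puro, RWPE-mAKT carries myristoylated AKT in pBabe-puro with empty pQCXIH, and RWPE-ERG/mAKT carries both. All 4 lines were thus transduced with both vectors and selected with hygromycin and puromycin. ERG was FLAG-tagged, and whether a line is 1 clone is not given in the sources used here. ERK2 and H3K27me3 ChIP-seq came from RWPE1 cells that carry pQCXIH alone, empty, with ERG or with ERG S96E, a phosphomimetic mutant, and a further ERG ChIP-seq from VCaP prostate cancer cells treated with the vehicle DMSO. Each line was sequenced as 3 poly-A selected RNA libraries, which the authors combined into 1 FPKM per gene and line, so the spread between libraries and the depth are unknown. Because measured FPKM values chose the members, and the ratios between lines come from the same values, every expression value is given as a description and no test was run.

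Ribosomes translate messenger RNA, and each contains 1 copy of nearly every protein described here, so that the genes are among the most highly expressed of a growing cell. Most of their transcripts begin with a cytosine followed by a stretch of pyrimidines, the terminal oligopyrimidine (TOP) motif. Through this motif their translation depends on the mTOR kinase, which lies downstream of AKT and acts in part through the RNA-binding protein LARP1. ERG belongs to the ETS transcription factors and is placed under the control of TMPRSS2 by gene fusion in many prostate cancers. ETS factors bind sequences around GGAA, including those in many ribosomal protein gene promoters.

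The lines were first checked. ERG was listed at an FPKM of 0.264 in RWPE1-vector, 358 in RWPE-ERG, 0.435 in RWPE-mAKT and 328 in RWPE-ERG/mAKT. AKT1 was listed at 58.7, 64.2, 156 and 281 in the same order, higher in both lines transduced with mAKT. Of the epithelial markers, EPCAM ranged from 65.0 to 89.7, KRT5 from 1170 to 3642, KRT8 from 622 to 1769, KRT18 from 817 to 1843 and TP63 from 21.3 to 39.2 over the lines. The leukocyte marker PTPRC was at most 0.00391, the endothelial marker PECAM1 at most 0.0253 and the fibroblast marker COL1A1 at most 2.18. VIM, an intermediate filament gene of mesenchymal and many cultured cells, was listed at 737 in RWPE1-vector, 1056 in RWPE-ERG, 366 in RWPE-mAKT and 288 in RWPE-ERG/mAKT, so that it was abundant and differed widely between lines.

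The members were expressed at high levels in every line. Their FPKM ranged from 185 to 6936 with a median of 1828 in RWPE1-vector, and from 140 to 10345 with a median of 2040 in RWPE-ERG. In RWPE-mAKT it ranged from 139 to 9195 with a median of 2136, and in RWPE-ERG/mAKT from 94.6 to 6604 with a median of 1614. Of the 100 genes with the highest mean FPKM, 43 were members. Over 7908 genes that reached an FPKM of 5 in every line, small structured RNAs left out, the members held 26.6% of the summed FPKM in RWPE1-vector, 27.7% in RWPE-ERG, 28.7% in RWPE-mAKT and 25.7% in RWPE-ERG/mAKT.

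The highest mean levels were those of RPS21, RPS29 and RPLP1. RPS21, a 40S protein, was listed at an FPKM of 6936 in RWPE1-vector, 10345 in RWPE-ERG, 8755 in RWPE-mAKT and 6433 in RWPE-ERG/mAKT. RPS29, a zinc-binding 40S protein, was listed at 6915, 7870, 9195 and 5807, and RPLP1, an acidic protein of the 60S stalk, at 6502, 7574, 6707 and 6604, in the same order of lines. RPS21 was thus highest with ERG alone and RPS29 with mAKT alone, and both were lowest with ERG and mAKT together.

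The lowest listed levels were those of RPL21, RPL27A and RPL22, though most of the FPKM at the RPL21 locus stands in the row of a copy, RPL21P28. RPL27A was listed at 252, 320, 302 and 249, and RPL22, whose protein also binds viral and cellular RNAs, at 306, 358, 372 and 329. RPL21 was listed at 185, 140, 139 and 94.6, so that it and RPL27A lay nearest above the limit of 5, far from it. Of the pattern-fitting genes left out, RPS18 (4736, 5311, 5566 and 3965) was placed on an alternate haplotype of chromosome 6.

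To describe how the set differed between lines, the log2 ratio of FPKM was taken for each of the 6 pairs of lines, and a gene was called higher or lower at a ratio of at least 1.2. As deposited, the members' FPKM was mostly higher in either single line than in RWPE1-vector and lower in RWPE-ERG/mAKT than in either single line, and other short or highly expressed genes shared much of this. In RWPE-mAKT over RWPE1-vector their median log2 ratio was 0.25 (a ratio of 1.19), and in RWPE-ERG over RWPE1-vector it was also 0.25. In RWPE-ERG/mAKT it was −0.36 over RWPE-ERG (a ratio of 0.780) and −0.37 over RWPE-mAKT (a ratio of 0.772). In RWPE-ERG/mAKT over RWPE1-vector it was −0.11, and in RWPE-mAKT over RWPE-ERG it was 0.03. The 8130 genes that reached an FPKM of 5 in every line, called expressed genes here, had medians of 0.03, −0.01, −0.07, −0.10, −0.08 and 0.04 for these 6 comparisons. Centred on the median of 197 other genes with a transcript of at most 1000 nt and an FPKM of at least 100, the members' median became 0.05 for mAKT over vector and −0.01 for ERG over vector, so that the latter turned. It was −0.13 for ERG/mAKT over ERG and −0.24 for ERG/mAKT over mAKT. Centred on 139 other genes with an FPKM of at least 500, these 4 medians were 0.08, −0.08, −0.07 and −0.30. These 139 include small nucleolar RNAs, described further below. Among them is SNORD33, whose log2 ratio of ERG over vector (2.41) is the highest of the set. The set also includes RPL13AP5 and RPL21P28, copies of members. It further holds ribosomal proteins whose symbols fall outside the name pattern (FAU, RPSA and GNB2L1) and translation factors with TOP transcripts, such as EEF1A1 and EEF2. The values of each of the 4 lines enter several of the comparisons, so these are not independent of each other. Both falls in RWPE-ERG/mAKT rest on the same RWPE-ERG/mAKT values.

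For mAKT alone, 71 of 74 members were above RWPE1-vector, as were 4673 of all 8130 genes. Of the members, 32 were called higher, against 8.44% of all 8130 genes, and 1 was called lower, against 5.49%. Of the 197 short genes 35.0% were called higher too, and of the 139 highly expressed genes 32.4%. For ERG alone, 65 of 74 members were above RWPE1-vector, as were 3996 of all 8130 genes. Of the members, 32 were called higher against 18.2% of all genes and 1 lower against 15.8%. Here 49.2% of the short and 55.4% of the highly expressed genes were called higher, more than the 43.2% of the members in either comparison. Centred on the short genes, 2 members were called higher and 2 lower for mAKT over vector, and 2 higher and 9 lower for ERG over vector. The shares of other genes under this centring were not computed. RPL21 was the member called lower in both as deposited, and with its copy added it was called in neither, at 0.14 and 0.19.

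For RWPE-ERG/mAKT over RWPE-ERG, 73 of 74 members were below 0, as were 4961 of all 8130 genes. Of the members, 59 (79.7%) were called lower against 25.0% of all genes, and 0 were called higher against 11.4%. For RWPE-ERG/mAKT over RWPE-mAKT, all 74 members were below 0, as were 5721 of all 8130 genes. Of the members, 60 (81.1%) were called lower against 19.2% of all genes and 0 higher against 7.42%. Of the short genes 43.1% and 26.4% were called lower in these 2 comparisons, and of the highly expressed genes 53.2% and 25.2%. Centred on the short genes, 9 and 34 members were called lower, again without a share of other genes under this centring. For RWPE-ERG/mAKT over RWPE1-vector, 64 members were below 0, as were 5253 of all 8130 genes. Of the members, 17 (23.0%) were called lower against 17.3% and 0 higher against 9.59%. For RWPE-mAKT over RWPE-ERG, 2 members were called higher against 16.5% and 2 lower against 15.3%. Each of the members stood within 0.58 of 0 on the log2 scale in the 2 comparisons of a single line with RWPE1-vector, so the differences were small and shared rather than large in a few genes.

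**Figure D1:**
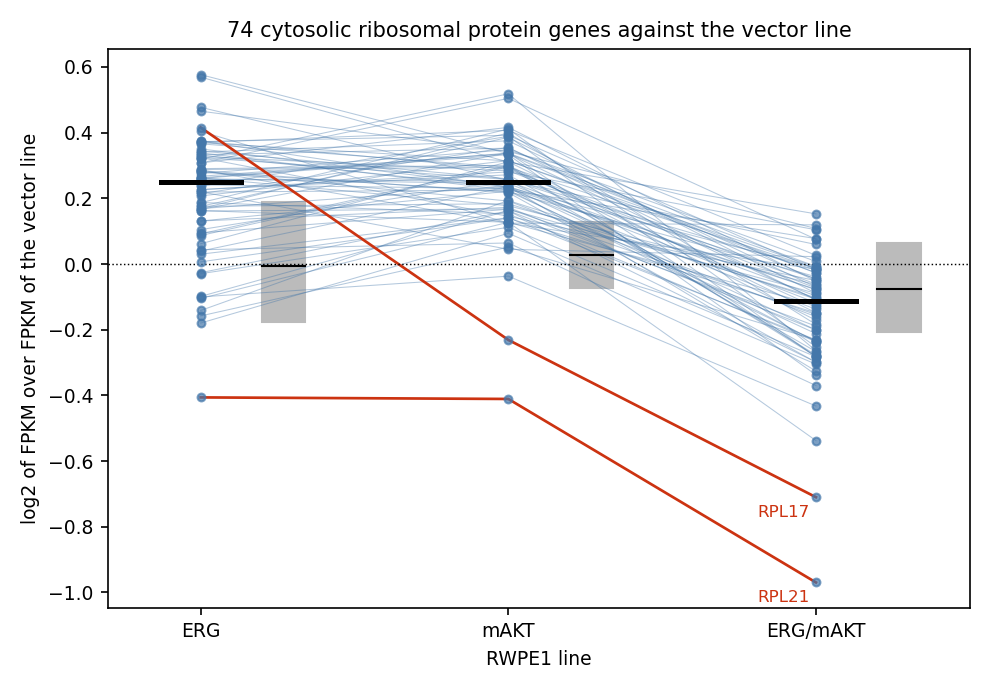
Log2 ratio of FPKM over the vector line (y axis) for 74 ribosomal protein genes in RWPE-ERG, RWPE-mAKT and RWPE-ERG/mAKT (x axis). Each point and thin line is 1 gene and the thick bar is the members' median (0.25, 0.25 and −0.11), and the grey box spans the quartiles of all 8130 genes with their median as a thin line. RPL17 and RPL21, in red, lie lowest in RWPE-ERG/mAKT.

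The level followed 1 order in most members. In 64 of 74 (86.5%) it was higher in both single lines than in both RWPE1-vector and RWPE-ERG/mAKT, against 22.5% of all genes, 61.9% of the 197 short genes and 43.9% of the 139 highly expressed genes. Centred on these 2 sets, 29 and 15 members had this order, and the shares of other genes under these centrings were not computed. RWPE-ERG/mAKT had the lowest level for 63 members (85.1%) against 41.8% of all genes. RWPE-mAKT had the highest level for 44 members (59.5%) against 30.1% of all genes. RWPE-ERG had it for 28 (37.8%) against 32.8%, near that share. RWPE1-vector had it for 2 (RPL21 and RPS6) against 23.3%, and RWPE-ERG/mAKT for 0 against 13.8%. The 10 members outside the common order were RPL13A, RPL14, RPL15, RPL17, RPL21, RPL29, RPL4, RPS2, RPS4X and RPS6.

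The mAKT ratio was thus of opposite sign without and with ERG. Subtracting the log2 ratio of mAKT over vector from that of ERG/mAKT over ERG gave a median of −0.62 over the members, with all 74 below 0 and a range of −1.10 to −0.12. Over all 8130 genes the median difference was −0.11, with 5117 below 0. It was −0.40 over the 197 short genes and −0.44 over the 139 highly expressed genes, and centring on their ratios left the members at −0.19 and −0.16. Whether this difference exceeds the spread between libraries cannot be told from pooled values. Across the 74 members, the 2 ratios, which share no line, had a Pearson r of 0.105 and a Spearman rho of −0.221, so a member with a larger ratio for mAKT alone did not have a regularly larger or smaller one in the presence of ERG. For ERG without and with mAKT, r was 0.260 and rho 0.273 over the same genes, which are not independent replicates.

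**Figure D2:**
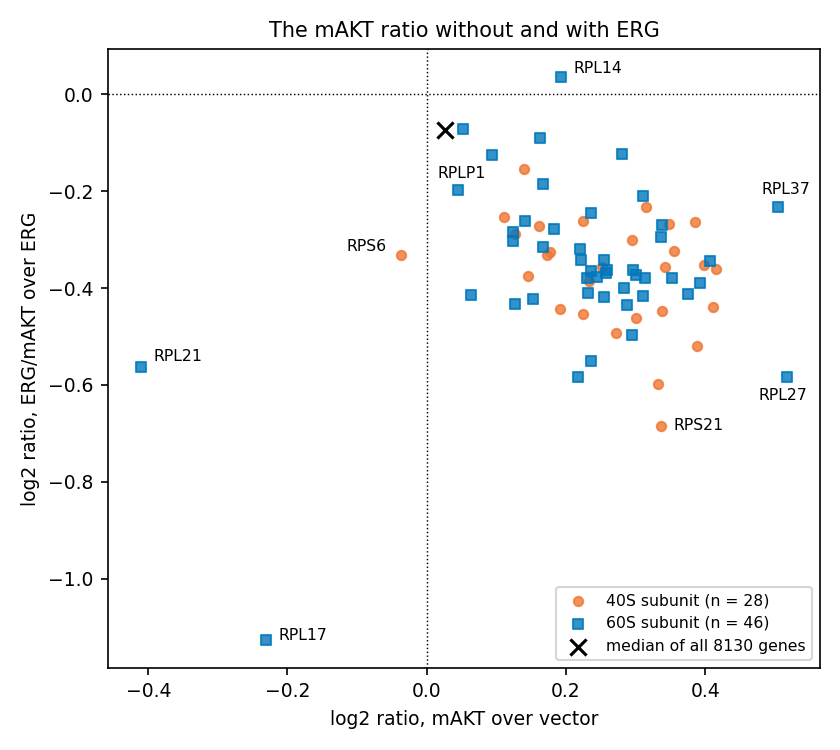
Log2 ratio of RWPE-mAKT over RWPE1-vector (x axis) against that of RWPE-ERG/mAKT over RWPE-ERG (y axis), 1 point per member, 28 of the 40S subunit as circles and 46 of the 60S subunit as squares. Most points lie to the right of 0 and below 0, and the cross marks the median of all 8130 genes (0.03 and −0.07). RPL14 is the member above 0 on the y axis, and RPL17 lies at −1.13.

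Both subunits had similar medians. The 28 members of the 40S subunit had medians of 0.28 for mAKT over vector, 0.23 for ERG over vector, −0.35 for ERG/mAKT over ERG and −0.39 for ERG/mAKT over mAKT. Those of the 46 members of the 60S subunit were 0.24, 0.26, −0.36 and −0.37. The 15 expressed genes among 16 listed for Diamond-Blackfan anemia, in which loss of 1 copy causes a failure of red cell production, had medians of 0.27, 0.26, −0.37 and −0.40. The 10 proteins listed around the peptide exit tunnel had medians of 0.23, 0.27, −0.31 and −0.34.

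With mAKT alone, RPL27, RPL37, RPS20 and RPS29 had the highest ratios. RPL27, a 60S protein, was listed at 3054 in RWPE1-vector, 3811 in RWPE-ERG, 4374 in RWPE-mAKT and 2543 in RWPE-ERG/mAKT, and its log2 ratio was 0.52 in RWPE-mAKT over RWPE1-vector and −0.78 in RWPE-ERG/mAKT over RWPE-mAKT, the lowest of the members in the latter. RPL37, a zinc-binding 60S protein, was listed at 1159, 1435, 1644 and 1221, and its mAKT over vector value was 0.50. RPS20, a 40S protein, had a log2 ratio of 0.42 (985, 1219, 1314 and 950) and RPS29 one of 0.41. All 4 genes were highest in RWPE-mAKT, and the other 3 were lowest in RWPE-ERG/mAKT while RPL37 was lowest in RWPE1-vector. The lowest ratios for mAKT over vector were those of RPL21 (−0.41 by its own row), RPL17 (−0.23), RPS6 (−0.04) and RPLP1 (0.04).

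With ERG alone, RPS21, RPL36, RPL24 and RPS25 had the highest ratios. The log2 ratio of ERG over vector was 0.58 for RPS21 and 0.57 for RPL36, a 60S protein listed at 2342, 3474, 2904 and 2603. RPL24, a 60S protein that contacts the small subunit, was listed at 1679, 2338, 2003 and 1750, with a log2 ratio of 0.48. RPS25, a 40S protein that several internal ribosome entry sites require, was listed at 1943, 2683, 2464 and 2094, with one of 0.47. These 4 genes were highest in RWPE-ERG, and RPL36, RPL24 and RPS25 remained above RWPE1-vector in RWPE-ERG/mAKT, by 0.15, 0.06 and 0.11.

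The lowest ratios for ERG over vector were those of RPL21 (−0.41), RPL4 (−0.18), RPL15 (−0.16) and RPL14 (−0.14). RPL4, which lines the exit tunnel, was listed at 2366, 2089, 2524 and 1915. RPL15 was listed at 460, 412, 477 and 392, and RPL14 at 681, 617, 779 and 632. In these 3 genes the level in RWPE-ERG was below that in RWPE1-vector, and that in RWPE-mAKT was the highest. RPL14 was the 1 member that was not lower in RWPE-ERG/mAKT than in RWPE-ERG (0.03), followed by RPL15 (−0.07), RPL29 (−0.09) and RPL22 (−0.12).

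For RWPE-ERG/mAKT over RWPE-ERG, the lowest ratios were those of RPL17 (−1.13), RPS21 (−0.69), RPS28 (−0.60) and RPL27 (−0.58). RPL17, near the exit tunnel, was listed at 1505, 2008, 1283 and 920, so that it was high in RWPE-ERG and low in both lines with mAKT. The same locus holds the read-through gene RPL17-C18orf32 (1.38, 0.932, 0.292 and 0.299) and C18orf32 (8.78, 11.0, 8.09 and 7.37). Both were listed far below RPL17 in every line, and how reads from shared exons were divided was not tested. RPS28, a 40S protein near the messenger RNA exit, was listed at 2363, 2831, 2976 and 1870.

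For RWPE-ERG/mAKT over RWPE-mAKT, RPL27 (−0.78) was followed by RPS3 (−0.67), RPS28 (−0.67) and RPL13A (−0.66). With the copy RPL13AP5 added, RPL13A was at −0.36, near the members' median. RPS3, at the messenger RNA entry of the 40S subunit, was listed at 1172, 1381, 1535 and 964. The ratios nearest 0 were those of RPL39 (−0.01), RPLP1 (−0.02), RPL7A (−0.14) and RPS26 (−0.15). RPL39, the smallest of the exit tunnel proteins, was listed at 3920, 5187, 4274 and 4258, RPL7A at 2896, 3532, 3157 and 2865, and RPS26 at 1447, 1830, 1691 and 1527. RPL39 and RPLP1 were high in RWPE-ERG and differed little between both lines with mAKT.

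RPS6, the 40S protein phosphorylated by the S6 kinases downstream of mTOR, was listed at 2986 in RWPE1-vector, 2786 in RWPE-ERG, 2910 in RWPE-mAKT and 2213 in RWPE-ERG/mAKT. It was not above RWPE1-vector in any line, with log2 ratios of −0.04 for mAKT, −0.10 for ERG and −0.43 for both. The stalk proteins, which recruit the elongation factors, did not share 1 pattern. RPLP0 was listed at 2060, 2104, 2272 and 1756, and RPLP2 at 3471, 4499, 4237 and 3327, both lowest in RWPE-ERG/mAKT, unlike RPLP1.

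RPL5 and RPL11 form a particle with the 5S ribosomal RNA that can bind the ubiquitin ligase MDM2 when ribosome assembly is disturbed. RPL5 was listed at 1386, 1551, 1557 and 1246, and RPL11 at 2026, 2430, 2560 and 2016. Their log2 ratios for ERG/mAKT over mAKT were −0.32 and −0.34.

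The 4 members on chromosome X were RPL10, RPL36A, RPL39 and RPS4X. RPL10 was listed at 574, 654, 638 and 487, and RPL36A at 757, 950, 921 and 720. RPS4X was listed at 999, 981, 1118 and 812, and was one of the members below RWPE1-vector in RWPE-ERG (−0.03). All 4 were lower in RWPE-ERG/mAKT than in RWPE-ERG, by −0.27 to −0.42 on the log2 scale.

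Where 2 rows share 1 locus, part of a member's value lies in another row. RPL13A was listed at 518, 481, 566 and 357, while the pseudogene RPL13AP5, which the table places at the same locus (chromosome 19, 49990810 to 49995564, hg19), was listed at 3573, 4374, 4283 and 3414. RPL21P28 was listed at 2240, 2634, 2525 and 2244 at the locus of RPL21 (chromosome 13, 27825691 to 27830702). With the copy added, RPL13A came to 4090, 4856, 4848 and 3771 and RPL21 to 2425, 2774, 2664 and 2339. The sums had log2 ratios of 0.25 and 0.19 for ERG over vector, where the member rows alone had −0.10 and −0.41. With both sums in place of the rows, 66 of 74 members were higher in both single lines than in the other 2 lines. The 2 copies were singled out after their values were seen, and how the reads were divided between the rows was not tested.

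In all, 40 members shared their table locus with at least 1 other gene, and 34 did not. The median log2 ratios of those 34 were 0.25 for mAKT over vector, 0.24 for ERG over vector, −0.34 for ERG/mAKT over ERG and −0.35 for ERG/mAKT over mAKT. Of the 40, 26 shared it with small nucleolar RNAs, which lie in the introns of these genes, are released when the introns are spliced out and guide the modification of ribosomal RNA.

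The small nucleolar RNAs had medians of the same sign as their hosts for mAKT over vector, ERG over vector and ERG/mAKT over ERG. In the rest of the 6 pairs of lines the signs were opposite. Of 52 listed at members' loci, 42 reached an FPKM of 5 in every line, at 22 members. Their median log2 ratio of ERG over vector was 1.52 (a ratio of 2.87), with 41 of 42 above 0, while that of the 22 hosts was 0.20. For ERG/mAKT over mAKT it was 0.64, with 34 of 42 above 0, while all 22 hosts were below 0 with a median of −0.42. For mAKT over vector the medians were 0.48 and 0.23, and for ERG/mAKT over ERG they were −0.48 and −0.36. For ERG/mAKT over vector they were 1.15 and −0.22, and for mAKT over ERG −1.27 and 0.03. SNORD33, in RPL13A, was listed at 10067 in RWPE1-vector, 53462 in RWPE-ERG, 13794 in RWPE-mAKT and 37657 in RWPE-ERG/mAKT. SNORD36A, in RPL7A, was listed at 2888, 10341, 3918 and 10722.

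Both of these small nucleolar RNAs, named after their values were seen, were high in the 2 lines with ERG. The 143 other small nucleolar RNAs that reached it had a median of 1.27 for ERG over vector and 0.68 for ERG/mAKT over mAKT, so those outside members' loci were also higher in these comparisons. These RNAs are short and mostly lack a poly-A tail, so their FPKM in poly-A selected libraries rests on few positions, and the part that selection and fragment size play in it was not tested.

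**Figure D3:**
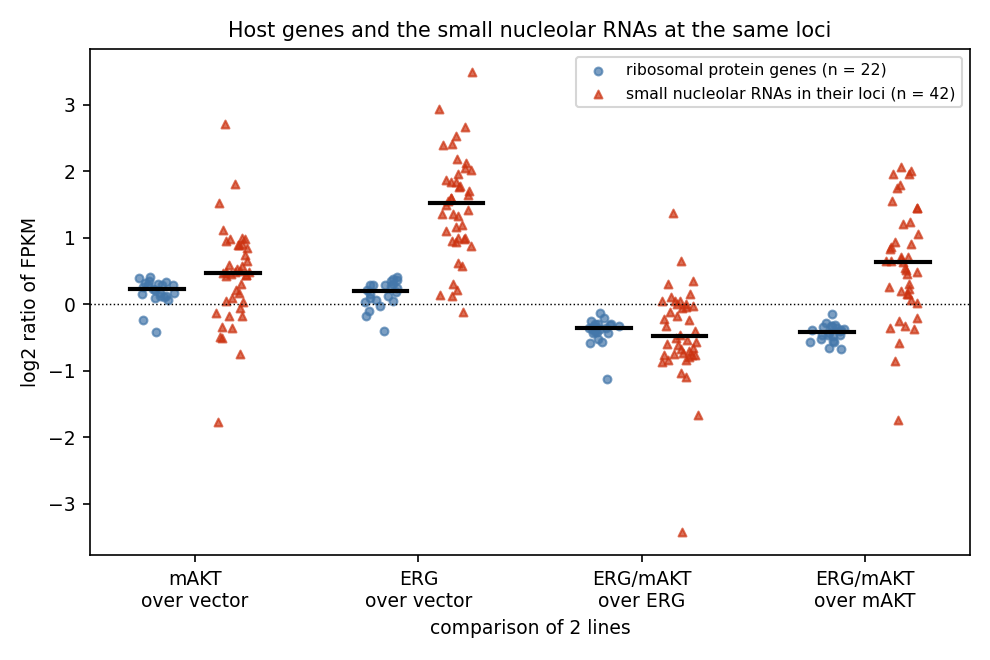
Log2 ratio of FPKM (y axis) in 4 comparisons (x axis) for 22 ribosomal protein genes (circles) and the 42 small nucleolar RNAs listed at their loci (triangles), with medians as black bars. The 2 groups part for ERG over vector (medians of 0.20 and 1.52) and for ERG/mAKT over mAKT (−0.42 and 0.64).

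Further ribosomal proteins, whose symbols fall outside the name pattern, were compared next. FAU, which encodes RPS30 fused to a ubiquitin-like protein, was listed at 1044, 1265, 1156 and 1095. RPSA was listed at 895, 789, 980 and 831. GNB2L1, which encodes the 40S scaffold protein RACK1, was listed at 2383, 2592, 2668 and 1821. Of the paralogs of members, 6 of 8 were expressed, with a median log2 ratio of 0.37 for ERG over vector. They were divided, with 4 (66.7%, against 18.2% of all genes) called higher and 2 (33.3%, against 15.8%) lower. Those lower were RPL22L1 (−0.39) and RPL7L1 (−0.31). RPL36AL was listed at 365, 535, 459 and 422, and RPL22L1, the paralog of RPL22, at 15.6, 11.9, 16.4 and 10.6. RPL22L1 had a log2 ratio of −0.63 for ERG/mAKT over mAKT, against −0.18 for RPL22.

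Among other genes of translation, the list nearest to the members in RWPE-ERG/mAKT was that of 14 elongation and other factors with TOP transcripts. Their median log2 ratio was −0.37 for ERG/mAKT over mAKT, with 14 of 14 below 0 and 10 called lower (71.4%, against 19.2% of all genes), and −0.28 for ERG/mAKT over ERG. In the single lines it was 0.08 for mAKT and 0.04 for ERG over vector, where 1 was called higher in each and 1, EIF3L (−0.27), lower for ERG. EEF1A1, which delivers aminoacyl-tRNA to the ribosome, was listed at 2899, 2936, 3462 and 2275, with −0.61 for ERG/mAKT over mAKT. EEF2, the translocase, was listed at 1208, 1087, 1263 and 890 (−0.50), and EIF4B, a helicase cofactor, at 142, 126, 149 and 106 (−0.49). These 3 genes were highest in RWPE-mAKT and lowest in RWPE-ERG/mAKT.

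The medians of most other lists lay nearer 0. The 23 other initiation factors had medians of 0.13 for mAKT over vector, 0.01 for ERG over vector, −0.04 for ERG/mAKT over ERG and −0.12 for ERG/mAKT over mAKT, with 5 (21.7%) called lower in each of the last 2, near the 25.0% and 19.2% of all genes. The 77 mitochondrial ribosomal proteins, encoded by separate genes, had medians of 0.13, 0.10, −0.08 and −0.09, with 8 (10.4%) called lower and 2 (2.60%) higher for ERG/mAKT over mAKT, against 19.2% and 7.42% of all genes. The 43 ribosome biogenesis genes, which process ribosomal RNA and assemble the subunits, had medians of 0.08, −0.06, 0.05 and −0.05. For ERG over vector, 4 of them (9.30%, against 18.2% of all genes) were called higher, among them EMG1 (0.49) and EBNA1BP2 (0.44). A further 7 (16.3%, against 15.8%) were called lower, among them NOLC1 (−0.41). The 13 genes of RNA polymerase I and its factors had medians of 0.01, −0.18, 0.02 and −0.09, with 4 (30.8%, against 15.8%) called lower for ERG over vector, among them POLR1E (−0.35) and POLR1B (−0.33). The 9 chaperones and carriers of ribosomal proteins had medians of 0.09, 0.06, −0.06 and −0.07.

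The 12 non-coding hosts of small nucleolar RNAs, many of which are TOP transcripts that encode no protein, had medians of 0.21, 0.21, −0.18 and −0.18. SNHG5 was listed at 468, 516, 721 and 382, and its log2 ratio was 0.62 in RWPE-mAKT over RWPE1-vector and −0.92 in RWPE-ERG/mAKT over RWPE-mAKT. GAS5 was listed at 410, 480, 537 and 401. Of 26 listed genes of the mTOR axis, 21 were expressed, with medians within 0.07 of 0 in the same 4 comparisons. For ERG over vector, 7 of them (33.3%, against 15.8%) were called lower, among them MYC (−0.39), and EIF4EBP1, an inhibitor of cap-dependent translation, was higher (0.62).

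**Figure D4:**
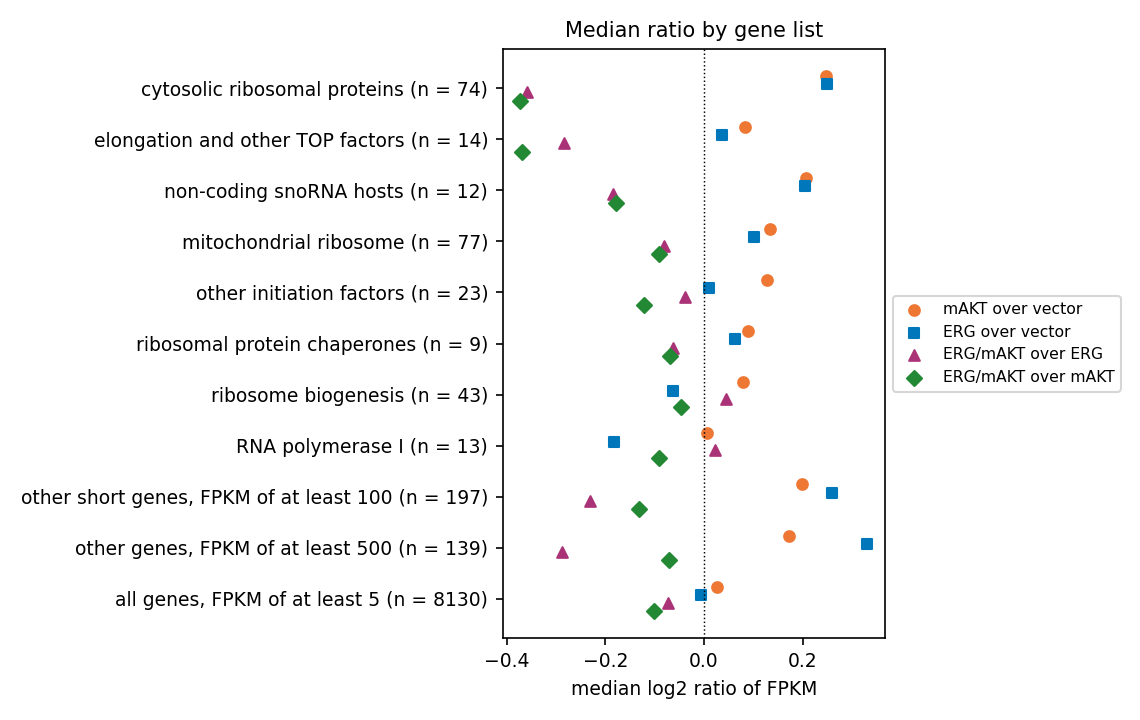
Median log2 ratio of FPKM (x axis) of each gene list (y axis, with its number of expressed genes) in 4 comparisons, 1 marker per comparison. Of the lists plotted, the members have the lowest median for ERG/mAKT over mAKT (−0.37), next to the TOP factors (−0.37), while other short genes and other genes of high FPKM lie beside the members for mAKT and ERG over vector.

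Transcript length and level moved with these results. The median transcript length of the members was 827 nt, against 2989 nt over all genes. Each length is that of 1 annotated transcript per gene, from 295 nt (RPS29) to 7573 nt (RPL37) in the members. It may differ from the transcripts behind the deposited FPKM. The medians of the 197 short genes were 0.20 for mAKT over vector, 0.26 for ERG over vector, −0.23 for ERG/mAKT over ERG and −0.13 for ERG/mAKT over mAKT. The 139 highly expressed genes, small nucleolar RNAs among them, had medians of 0.17, 0.33, −0.29 and −0.07. Their upper quartile for ERG over vector was 1.34. For ERG over vector these genes stood as high as the members, and for ERG/mAKT over mAKT the members stood lower, by 0.24 and 0.30 in the median. The part of length and level in the members' ratios was not tested. Within the members, transcript length had a Spearman rho of −0.111 with the ratio of mAKT over vector, −0.161 with ERG over vector, 0.221 with ERG/mAKT over ERG and 0.0431 with ERG/mAKT over mAKT (n = 74 genes). The members' level, as the mean FPKM of the 2 lines not compared, had a rho of 0.124, 0.366, −0.185 and 0.0433 with the same ratios and of −0.303 with mAKT over ERG. Members of higher level thus had somewhat higher ratios for ERG over vector.

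The sequence at the start of the genes is shown next, since most members are TOP genes. RefSeq promoter windows (GRCh38.p14, 250 bases before to 50 bases from the annotated start) were at hand for 60 of 74 members, of which 10 had more than 1 window, and a gene was counted where any window held the feature. The 4 members with the lowest and the 4 with the highest ratio of ERG/mAKT over mAKT are printed from 10 bases before the start through the first 20 bases of the transcript, on the gene's strand. Capitals mark the longest run of C and T that covers the start or lies within 5 bases of it. The first 4 had log2 ratios of −0.78, −0.67, −0.67 and −0.66 (RPL13A by its own row, without its copy), and the last 4 of −0.01, −0.02, −0.14 and −0.15.
RPL27 (chr17:42998409-42998438, plus strand): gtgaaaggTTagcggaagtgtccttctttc
RPS3 (chr11:75399508-75399537, plus strand): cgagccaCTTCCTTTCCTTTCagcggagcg
RPS28 (chr19:8321486-8321515, plus strand): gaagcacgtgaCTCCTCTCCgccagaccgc
RPL13A (chr19:49487598-49487627, plus strand): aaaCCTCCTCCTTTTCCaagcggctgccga
RPL39 (chrX:119791611-119791640, minus strand): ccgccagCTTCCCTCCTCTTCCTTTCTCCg
RPLP1 (chr15:69452808-69452837, plus strand): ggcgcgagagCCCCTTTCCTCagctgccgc
RPL7A (chr9:133348208-133348237, plus strand): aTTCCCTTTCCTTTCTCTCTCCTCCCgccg
RPS26 (chr12:56041908-56041937, plus strand): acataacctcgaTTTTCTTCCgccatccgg

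A pyrimidine run was found at most members' starts. The annotated first base was C in 47 of 60 members (78.3%), against 17.6% of 6198 expressed genes that had a window. A run of at least 8 C and T bases lay at the start of 49 members (81.7%), against 16.2% of those genes and 14.1% of all 27305 genes with a window. The median run was 12 bases in the members and 4 in the expressed genes, and the longest member run was the 25 bases of RPL7A. RPL27 had a run of 2 bases at its annotated start, with pyrimidines further into the transcript. Among the printed starts, long runs stood both at members with the lowest and at members with the highest ratio.

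**Figure D5:**
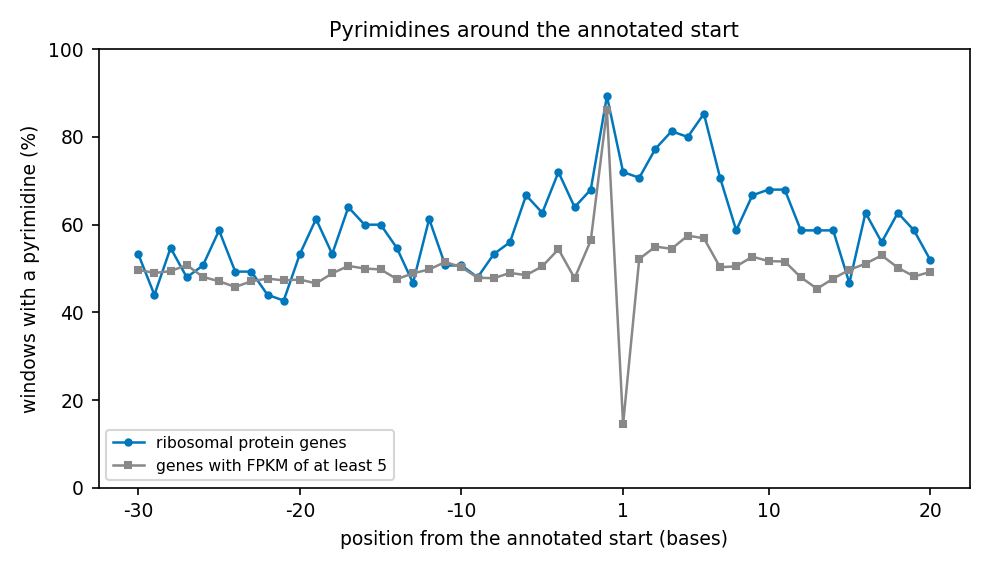
Share of promoter windows with a pyrimidine (y axis, percent) by position from the annotated start (x axis, bases, with 1 as the first transcribed base) for the ribosomal protein genes and for all expressed genes. At the first base the members stand at 72.0% and the other line at 14.5%, and the members stay above it through the next bases.

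The 49 members with a run of at least 8 had median log2 ratios of 0.25 for mAKT over vector, 0.26 for ERG over vector, −0.36 for ERG/mAKT over ERG and −0.37 for ERG/mAKT over mAKT. The 11 with a shorter run had 0.24, 0.09, −0.29 and −0.46. The largest gap was that for ERG over vector. Of the expressed genes that are not members, 536 began with C and had a run of at least 8. Their medians were 0.04, 0.02, −0.11 and −0.13 in the same comparisons, against 0.02, −0.02, −0.06 and −0.10 for the 5602 others with a window, so a pyrimidine start by these letters alone went with ratios far nearer 0 than those of the members.

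ETS letters were counted in the 150 bases before the start, on both strands. GGAA was present in 58 of 60 members (96.7%), against 85.0% of expressed genes and 83.4% of all genes with a window. CCGGAAG, which contains GGAA, was present in 14 members (23.3%), against 18.0% of expressed genes and 8.33% of all. TATAAA was present on the gene's strand in the 50 bases before the start of 2 members (3.33%), against 1.79% and 3.33%. The 14 members with CCGGAAG had medians of 0.25, 0.26, −0.36 and −0.38 in the 4 comparisons, and the 46 without it 0.25, 0.23, −0.36 and −0.38. Members with and without these letters thus had nearly the same medians.

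ChIP-seq and ATAC-seq gave readouts that the choice of members did not use. Each is 1 list of peaks from 1 library, without replicates, and a peak was counted where it overlapped the start of the gene's main GENCODE transcript by at least 1 bp within 500 bp (ATAC-seq) or 1 kb (ChIP-seq) to either side, on hg19. The comparison was with the same share over 7376 expressed genes, and over 104 other genes with a mean FPKM of at least 500, as a description without a test.

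Chromatin was open at nearly every member. ATAC-seq peaks lay at 74 of 74 starts in RWPE-ERG, 74 in RWPE-mAKT and 73 in RWPE-ERG/mAKT, against 95.8%, 95.1% and 92.9% of expressed genes. The lists held 63354, 57999 and 42081 peaks. The median fold enrichment at members was 8.20, 6.68 and 6.93, against 7.82, 6.30 and 6.40 at all expressed genes. The 1 start without a peak was that of RPL17 in RWPE-ERG/mAKT, the member with the lowest ratio of ERG/mAKT over ERG. At RPL17 (start at 47018835 on chromosome 18) the peak spanned 47018614 to 47018953 in RWPE-ERG, with a fold enrichment of 4.78, and 47018709 to 47019005 in RWPE-mAKT, with 3.67. The list of RWPE-ERG/mAKT was the shortest of the 3, and whether the missing peak goes with the lower FPKM was not tested.

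ERG peaks were more frequent at members than at expressed genes. VCaP, which has the TMPRSS2/ERG rearrangement, had ERG peaks at 17 of 74 starts (23.0%), against 6.16% of expressed genes and 7.69% of the other genes of high FPKM. With peaks of a q-value of at most 0.01, 8 starts (10.8%) had one, against 2.24% and 4.81%. The highest fold enrichments were 7.22 at RPL12 (chromosome 9, 130213631 to 130213945) and 6.39 at RPS27 (chromosome 1, 153962690 to 153963454), and both peaks cover the start. In RWPE-ERG/mAKT, ERG peaks lay at 7 starts (9.46%), against 2.07% and 4.81%. None of the 7 had a q-value of at most 0.01, against 0.0949% and 0.962%, and the list held 450 such peaks.

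The 7 members with an ERG peak in RWPE-ERG/mAKT were RPL24, RPL27, RPL27A, RPL28, RPL30, RPL4 and RPS12, named because they are few. RPL4 alone had a peak in both lists, over its start (chromosome 15, 66797046 to 66797377 in RWPE-ERG/mAKT and 66797064 to 66797282 in VCaP), with fold enrichments of 4.94 and 4.14. The 17 members with an ERG peak in VCaP had a median log2 ratio of 0.26 for ERG over vector, and the 57 without 0.24. For ERG/mAKT over mAKT the medians were −0.36 and −0.37. The 7 with a peak in RWPE-ERG/mAKT had medians of 0.32 and −0.31, against 0.23 and −0.37 for the 67 without.

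Members with CCGGAAG and an ERG peak within 1 kb of the start are printed where they had a single promoter window, with 30 bases of GRCh38.p14 on the gene's strand and the letters in capitals. RPL26, RPS25 and RPS6 had their peak in VCaP and RPL27A in RWPE-ERG/mAKT.
RPL26 (chr17:8383195-8383224, minus strand): aaacttacagaaCCGGAAGcagcgtgtagt
RPL27A (chr11:8682715-8682744, plus strand): cggcctctgtgaCCGGAAGtgaggcgtttt
RPS25 (chr11:119018381-119018410, minus strand): ccgccttttgccCCGGAAGtactcacagcg
RPS6 (chr9:19380323-19380352, minus strand): gattaatctcgcCCGGAAGtaccgcccacc
The letters begin 19 bases before the start in RPL26, 65 in RPL27A, 55 in RPS25 and 104 in RPS6. The peak covers the start of RPS6, while its nearest edge lies 227 bp from the start of RPS25, 161 bp from that of RPL27A and 874 bp from that of RPL26. Where the RefSeq and GENCODE starts agree, the letters of RPS25, RPL27A and RPL26 thus lie outside the peak.

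ERK2 peaks were as frequent at members as at other highly expressed genes. ERK2 is a kinase of the Ras pathway. It was mapped on chromatin in RWPE1 cells that carried pQCXIH alone, not in the lines of the RNA libraries. Those with the empty vector are called RWPE1-vector here, and those with ERG are called RWPE-ERG. Peaks lay at 23 starts (31.1%) in each line, against 15.9% of expressed genes in RWPE1-vector and 10.9% in RWPE-ERG. The lists differed widely in size, with 41276 peaks in RWPE1-vector and 5721 in RWPE-ERG, so equal counts do not show equal binding. Over the other genes with a mean FPKM of at least 500 the shares were 34.6% and 32.7%. With a q-value of at most 0.01, 0 starts had a peak in RWPE1-vector and 1 in RWPE-ERG, that of RPL41 with a fold enrichment of 6.33. At that limit 0.569% and 0.461% of expressed genes had a peak, and 2.88% of the other genes of high FPKM in each line.

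H3K27me3, the repressive histone mark that the PRC2 complex deposits, had a peak at 1 or 2 members in each list, too few to set apart from the share of all expressed genes. The cells called RWPE1-vector and RWPE-ERG here again carried pQCXIH alone. In RWPE1-vector, 2 starts (2.70%), those of RPL23A and RPL4, had a peak, against 5.38% of expressed genes. In RWPE-ERG it was 1 start (1.35% against 0.935%) and in RWPE1 cells with ERG S96E 1 start (1.35% against 2.73%), in both that of RPL38. The peak in ERG S96E cells spanned 72195970 to 72199373 on chromosome 17 and ended 444 bp from the start of RPL38, with a fold enrichment of 4.07. It was the 1 peak at a member with a q-value of at most 0.01. At that limit 0.624% of expressed genes had a peak in ERG S96E cells, 0% in RWPE1-vector and 0.0136% in RWPE-ERG.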

How the data were processed

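Expression values are the FPKM per gene and line that the authors deposited in a Cuffdiff table. RNA was selected with oligo dT beads and reverse transcribed with random hexamers. The authors aligned the reads with TopHat2 to hg19, and Cuffdiff pooled the 3 libraries of each line. The deposited table holds 0 columns of single libraries and no counts, so depth is unknown and no error, replicate test or pairing could be computed. The table's own fold changes, test statistics, p-values and q-values between lines are the authors' comparisons and were not used. The deposited MACS2 peak lists give the fold enrichment and the −log10 q-value of each peak, 1 list per sample. 2 lists whose contents go against their labels were not used.

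Ratios were taken as log2 of FPKM without a pseudocount. 4 gene names with differing values in the table were left out. Starts and transcript lengths come from GENCODE release 44 mapped to GRCh37 (hg19), and 90.7% of the expressed genes had a length. Promoter letters come from RefSeq (GRCh38.p14), and 14 members had no window. Coordinates were not converted between builds.

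The members, gene lists and rules were chosen with earlier results of these data known. Members named are the 4 highest and 4 lowest log2 ratios in each of 4 comparisons, the 3 highest and 3 lowest mean levels, those at the limits, the stalk, 5S particle and chromosome X members, RPS6, and those with a ChIP peak where 5 or fewer had one. Of other lists, up to 3 genes with the largest ratio were named. Some items are not reported here. Genes outside this rule are said to be chosen after their values were seen, and the proteins outside the name pattern, paralogs and locus neighbours were named as background to members. The code was tested on simulated data. Values were computed in Python 3.11.15 with pandas 2.3.3 and numpy 2.4.6, and plotted with matplotlib 3.10.9.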

Additional observations from a re-analysis of the deposited data

How the results depend on the processing

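No paired analysis was possible because each line has 1 pooled FPKM per gene, and no library was left out for the same reason. The spread between libraries is unknown, so whether any difference between lines exceeds it was not tested. A pseudocount of 1 FPKM, an FPKM limit of 1 or 50, members sharing no locus and copies added to RPL13A and RPL21 moved no median log2 ratio by 0.1 or more. Centring on genes that are not members moved none by as much. Even so, the median for mAKT over ERG (0.03) became −0.02 and that for ERG/mAKT over vector (−0.11) became −0.04. The alternatives that centre on other short genes or other genes of high FPKM, add copies or leave out members sharing a locus were chosen after seeing the data.

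Centring on the other short genes with an FPKM of at least 100 gave medians of 0.0487 for mAKT over vector, −0.0097 for ERG over vector (reversed), −0.13 for ERG/mAKT over ERG and −0.24 for ERG/mAKT over mAKT. Centring on other genes with an FPKM of at least 500, small nucleolar RNAs among them, gave 0.0757, −0.0817 (reversed) and −0.0701 for the first 3. It gave −0.22 for ERG/mAKT over vector and 0.20 for mAKT over ERG. Under these 2 centrings the median difference of the mAKT ratios with minus without ERG was −0.19 and −0.16, and 29 and 15 members were higher in both single lines than in the other 2. The cause was not tested. With the short genes as centre, the members called higher and lower were 2 and 2 for mAKT over vector, 2 and 9 for ERG over vector, 1 and 9 for ERG/mAKT over ERG, and 14 and 1 for mAKT over ERG, and 34 were lower for ERG/mAKT over mAKT. These centred counts were computed for the members only, without a share of other genes.

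At a ratio of 1.5, 0 members were called in either direction for mAKT over vector and for ERG over vector, 3 were lower for ERG/mAKT over ERG, 6 for ERG/mAKT over mAKT and 2 for ERG/mAKT over vector, and 0 were higher and 1 lower for mAKT over ERG. Centring on genes that are not members left 5 lower for ERG/mAKT over vector, and 1 higher and 5 lower for mAKT over ERG. With the copies added, 0 were lower for mAKT and for ERG over vector. The shares of all genes at a ratio of 1.5, or centred on genes that are not members, were not computed.

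A q-value limit of 0.01 left ERG peaks at 0 members in ERG/mAKT and 8 in VCaP, ERK2 peaks at 0 in vector and 1 in ERG, and H3K27me3 peaks at 0 in vector and 0 in ERG. In the same order, the shares of expressed genes were 0.0949% and 2.24%, 0.569% and 0.461%, and 0% and 0.0136%. A window of 500 bp left ERK2 peaks at 13 members in vector and 15 in ERG, and H3K27me3 peaks at 1 in vector and 0 in ERG. The shares of expressed genes were 8.57% and 7.23% for ERK2, and 1.45% and 0.312% for H3K27me3. The ATAC-seq counts were unchanged by both alternatives, a q-value limit of 0.01 and a window of 100 bp.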
